A study of Mus musculus with 16 samples.

Results

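Sox10, S100b, Fabp7, Gfap, Apoe, Npy and Frzb are 7 genes used as markers of olfactory ensheathing glia, the glial cells that wrap the axons of olfactory sensory neurons. They were chosen by name and found by gene symbol in the annotation of the arrays. All 7 had 1 probe set (the group of probes that gives 1 value for a gene), out of 19505 genes with a symbol, and each was followed through all 16 libraries.

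The libraries came from S100a5-tauGFP mice on a C57BL/6 background, of both sexes and 7 to 12 weeks old, in which a green fluorescent protein (GFP) reporter is tied to S100a5. Each of 24 mice spent 40 h alone in a chamber flushed with clean air, and from 26 h received 10 s pulses every 20 min of filtered air (vehicle) or of isoamyl acetate mixed with whiskey lactone (odor). The olfactory mucosa of 3 mice was pooled, dissociated and sorted for GFP, so that 8 pools gave 16 libraries, with 4 pools for each treatment. All 4 groups thus carry the reporter and spent the same time in clean air. They are odor titled GFP+, odor titled GFP-, vehicle titled GFP+ and vehicle titled GFP-, with 4 libraries in each. Within a treatment, the titled GFP+ and titled GFP- libraries of 1 pool share their 3 mice.

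Fractions are named by the sample titles because the cell type tag named the opposite fraction in all 16 samples. Were the tags correct instead, each difference between fractions given here would have the opposite sign, and the effect of odor given for a fraction would belong to the other one. S100a5 itself went against the titles. Its log2 value was 14.59 to 15.55 in 7 of the 8 titled GFP+ libraries and 16.04 to 16.66 in 7 of the 8 titled GFP- libraries. The exception was vehicle pool 3, with 16.37 in the library titled GFP+ and 14.99 in the one titled GFP-. Results that rest on that pool are given for all 16 arrays and for the 14 arrays without it, a choice made after the values were seen. Values are on the deposited log2 scale, which reached 19.4 and so passes the limit of 16 for a 16-bit scanner. Differences are therefore given on that scale and not as folds.

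Ensheathing glia arise from the neural crest and accompany olfactory axons from beneath the epithelium to the outer layer of the olfactory bulb, where new axons keep growing in throughout life. Sox10 is the transcription factor that specifies neural crest glia, S100b is a calcium-binding protein and Gfap an intermediate filament of glial cells. Fabp7 and Apoe carry lipids, Npy is a secreted neuropeptide, and Frzb is a secreted inhibitor of Wnt ligands.

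The arrays gave a clear signal for 1 of the 7 genes. Apoe had a mean log2 value of 14.43 over the 16 arrays, above 99.3% of the 5222 probe sets that carry a negative control identifier, and exceeded their 95th percentile of 9.56 in 16 of 16 libraries. Fabp7 lay above the median of the negative controls of the same array in 15 of 16 libraries, with a mean of 7.03, and Sox10 in 9 of 16, with a mean of 5.46. S100b, Npy, Frzb and Gfap lay below that median in every library. In the list of ensheathing glia markers, 11 of 13 were measured and 8 had a mean below the negative controls' median of 5.45: S100b, Npy, Frzb and Gfap, and with them Cdh19, Erbb3, Foxd3 and Ngfr. The negative controls spread widely, with a 5th percentile of 3.22, so their median is a rough guide and not a limit of detection. At this signal the sorted cells could not be called ensheathing glia, and the genes are described by their names. The marker of mature sensory neurons, Omp, was at 18.44 to 18.68 in all 16 libraries. These values lie near the highest deposited value of 19.4, and whether they were saturated was not tested. In sorted bulk samples such as these, fewer cells of a type and less RNA per cell cannot be told apart.

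**Figure D1:**
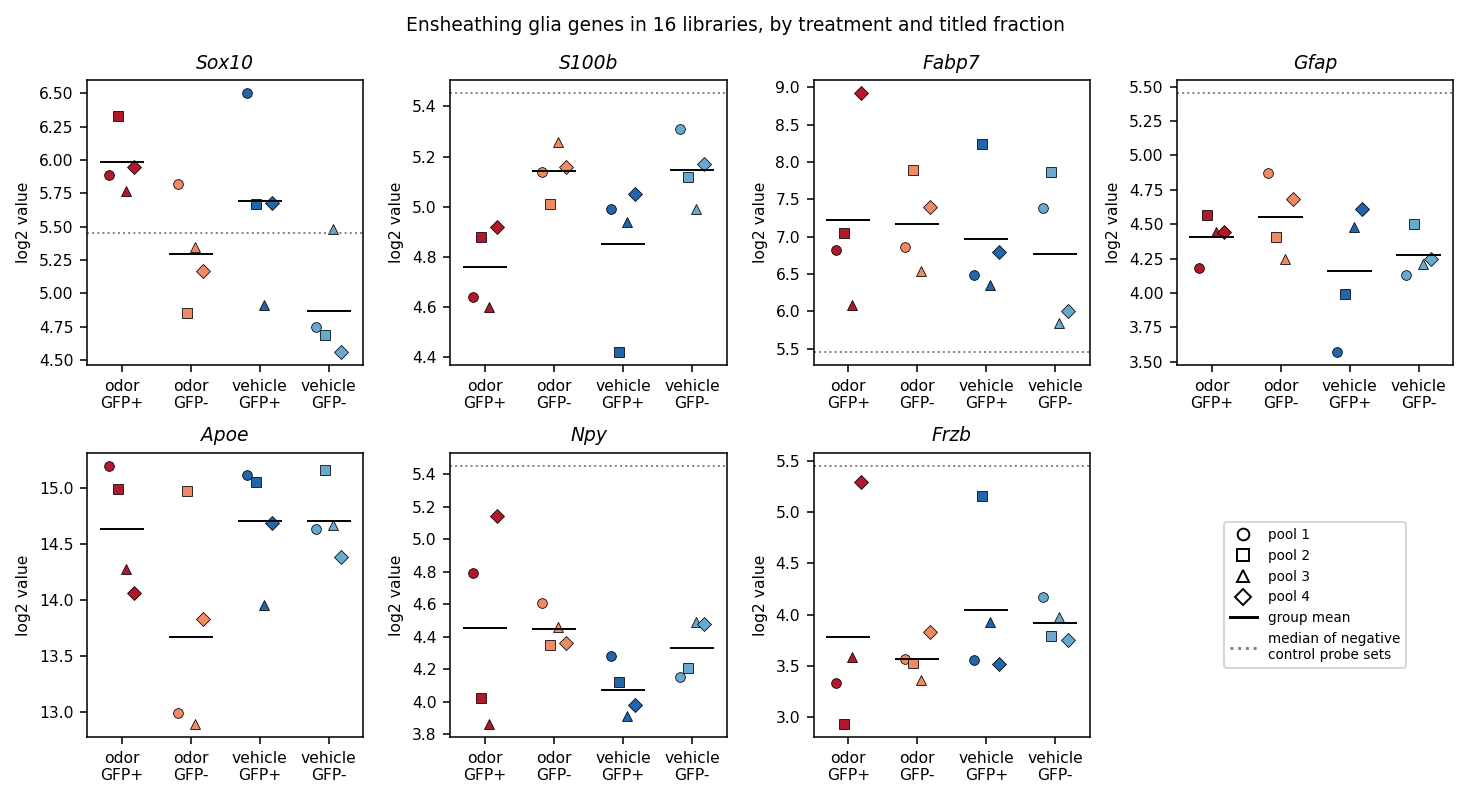
Log2 values (vertical axis, a separate scale for each gene) of the 7 genes in the 16 libraries, grouped on the horizontal axis by treatment and titled fraction, with a symbol for each pool, a bar at the group mean and a dotted line at the median of the negative controls (off the scale for Apoe). Sox10 was mostly higher and S100b lower in the libraries titled GFP+, and S100b, Gfap, Npy and Frzb lay under the dotted line throughout.

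Sox10 was higher in the titled GFP+ library of most pools, at a low signal. It exceeded the negative controls' median in 9 of 16 libraries and their 95th percentile in 0. In the odor pools 1 to 4 its log2 values were 5.89, 6.33, 5.77 and 5.95 in the titled GFP+ libraries, and 5.82, 4.85, 5.35 and 5.17 in the titled GFP- libraries. In the vehicle pools they were 6.50, 5.67, 4.91 and 5.68, against 4.75, 4.69, 5.48 and 4.56. Sox10 was thus higher in the titled GFP+ library of 7 of 8 pools, the exception being vehicle pool 3, and the odor groups overlapped only through pool 1 of the titled GFP- libraries. The group means were 5.98 ± 0.24 against 5.30 ± 0.41 with odor and 5.69 ± 0.65 against 4.87 ± 0.41 with vehicle (SD, n = 4 libraries each). Averaged over both treatments, the difference between fractions was 0.75 ± 0.21 (SE, 95% interval 0.30 to 1.20), with an adjusted p of 0.0321 by limma with Benjamini-Hochberg adjustment over all 19505 genes. Without vehicle pool 3 it was 0.98 ± 0.17 (0.62 to 1.35; adjusted p = 0.000477 by limma), higher in 7 of 7 pools.

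Of the 7 genes, 2 passed the threshold of 0.05 in this averaged comparison, Sox10 upward and S100b downward, on both sets of arrays. Among all genes 10.8% passed on 16 arrays (6.91% higher and 3.9% lower) and 20% on 14 (11.5% higher and 8.51% lower), so calls were common and a count of 2 is not read as particular to these genes. The call for Sox10 on 16 arrays was lost when the pool of mice was a fixed block (adjusted p = 0.121 by limma) and with quantile normalization (0.0574). It was also lost when any of 11 single libraries was left out, and stood without odor titled GFP- 1, odor titled GFP+ 3 or 4, or either library of vehicle pool 3 (adjusted p from 0.0036 to 0.0705 over the 16 fits). On the 14 arrays it stood without any 1 library (0.000152 to 0.00187) and with the fixed pool block (0.00248).

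Within the vehicle pools alone, Sox10 differed by 0.82 ± 0.30 between fractions on 16 arrays (adjusted p = 0.478 by limma), and passed with only its titled GFP+ library of pool 3 left out (1.08, 0.0322). Without pool 3 the difference was 1.28 ± 0.26 (0.73 to 1.83; adjusted p = 0.00294 by limma), the 3 titled GFP+ libraries all lay above the 3 titled GFP- libraries, and Sox10 was the only one of the 7 genes called. The share of all genes called in the vehicle comparison was 0% on 16 arrays, where 1912 of 19505 genes and 1 of the 7, Sox10, had an unadjusted limma p under 0.05, and 11.2% on 14 arrays. Within the odor pools the difference was 0.69 ± 0.30 (adjusted p = 0.189 by limma) on 16 arrays and 0.69 ± 0.22 (adjusted p = 0.0576) on 14. None of the 7 genes passed in the odor pools by limma, against 6.97% of all genes on 16 arrays and 13.2% on 14. Sox10, S100b and Apoe, 3 of the 7, had an unadjusted limma p under 0.05 on each set. Those shares are of adjusted calls. The count of 3 thus has no like share of all genes beside it and is not read as a result. On 14 arrays Sox10 did pass in the odor pools by limma with the pool of mice as a random block (adjusted p = 0.0402). On that set it also passed without odor titled GFP- 1 (0.0155) and without vehicle titled GFP+ 1 (0.0265).

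The other members of the SoxE group, Sox8 and Sox9, were also higher in the titled GFP+ libraries in the averaged comparison. Sox9, a regulator of many supporting and gland cells as well as glia, rose by 2.89 ± 0.75 on 16 arrays (adjusted p = 0.0232 by limma) and by 4.01 ± 0.27 on 14 arrays (adjusted p = 2.22e-08). Sox8 rose by 0.50 ± 0.15 (adjusted p = 0.0461) and 0.61 ± 0.13 (adjusted p = 0.00211). Several lists of markers of cells other than glia moved with Sox10, and others did not. All 6 of 6 microvillar and ionocyte-like markers and 6 of 7 sustentacular (supporting cell) markers rose in the same comparison on 14 arrays, as did 4 of 4 globose basal, 3 of 5 immature neuron and 2 of 4 smooth muscle and pericyte markers, where 11.5% of all genes rose. On 16 arrays, where 6.91% of all genes rose, the microvillar and immature neuron counts were the same and the others lower. Krt8 and Krt18 passed there (adjusted p = 0.0142 and 0.0137 by limma). The sustentacular markers Cyp1a2 (0.0531), Cyp2a5 (0.0557), Ermn (0.0979) and Cyp2g1 (0.116) did not. Nor did Neurog1 of the globose basal list (0.0775) and Acta2 of the smooth muscle and pericyte list (0.105). The mean log2 value of the microvillar list was 7.59 to 8.95 in the odor titled GFP+ libraries and 4.99 to 5.45 in the odor titled GFP- libraries, with Chat alone below the negative controls. That of the sustentacular list, with no member below, was 9.90 to 11.34 against 7.96 to 9.22, and in vehicle pools 1, 2 and 4 it was 10.22 to 11.04 against 8.81 to 9.07. The globose basal list ran from 6.61 to 7.87 against 4.37 to 5.24 with odor, with Neurog1 below the negative controls. The immature neuron list, with no member below, ran from 11.93 to 12.44 against 9.78 to 9.89, and the smooth muscle and pericyte list, with Acta2 and Myh11 below, from 6.77 to 7.19 against 5.41 to 5.67. The list of ensheathing glia markers ran from 5.50 to 6.12 against 5.44 to 5.75 with odor. The horizontal basal list ran from 3.89 to 4.17 against 3.87 to 4.16 with odor. For the endothelial list it was 3.74 to 4.13 against 3.82 to 4.16. Every member of both lay below the negative controls. The mature neuron list ran from 17.31 to 17.42 against 17.45 to 17.60. On 14 arrays Icam1 (horizontal basal) rose by 0.42 ± 0.12 (adjusted p = 0.023 by limma). Kdr (endothelial) differed by -0.42 ± 0.14 (0.0444) and Ano2 (mature neuron) by -0.51 ± 0.09 (0.000635). The part of these other cells in the Sox10 difference was not tested.

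S100b went the other way. In the odor pools 1 to 4 its log2 values were 4.64, 4.88, 4.60 and 4.92 in the titled GFP+ libraries and 5.14, 5.01, 5.26 and 5.16 in the titled GFP- libraries. The vehicle pools had 4.99, 4.42, 4.94 and 5.05, against 5.31, 5.12, 4.99 and 5.17. S100b was lower in the titled GFP+ library of 8 of 8 pools, and the odor groups did not overlap. In vehicle pool 3, where S100a5 and Sox10 ran opposite to the other pools, S100b did not turn with them (4.94 against 4.99). With fractions taken by S100a5 level and not by title, that pool goes against the others. The averaged difference was -0.34 ± 0.10 (SE, 95% interval -0.56 to -0.12; adjusted p = 0.0478 by limma) on 16 arrays and -0.38 ± 0.12 (adjusted p = 0.0322) on 14. It was small, on a probe set below the negative controls' median in each library, and its whole range over the 16 arrays was 0.89, against a median range of 1.10 for all genes.

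The S100b call on 16 arrays was lost with the fixed pool block (adjusted p = 0.107 by limma), with the replicate number as a block (0.0599), and when any of 13 single libraries was left out. It stood only without odor titled GFP+ 4 or without either library of vehicle pool 3 (0.0352 to 0.0987 over the 16 fits). On 14 arrays it stood with the fixed pool block (0.0437) and in 7 of 14 such fits (0.0232 to 0.0828). It was lost there without odor titled GFP- 3 or 4, odor titled GFP+ 1 or 3, vehicle titled GFP- 1 or 4, or vehicle titled GFP+ 2. Within the odor pools S100b differed by -0.38 ± 0.15 (adjusted p = 0.133 by limma), and within the vehicle pools by -0.30 ± 0.15 (adjusted p = 0.537) on 16 arrays and -0.38 ± 0.18 (adjusted p = 0.226) on 14.

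The other S100 genes did not follow S100b as a group. In the averaged comparison on 14 arrays 4 of 11 rose and 4 fell, and on 16 arrays 4 rose and 1 fell. Of all genes 11.5% rose and 8.51% fell on 14 arrays, and 6.91% and 3.9% on 16. S100a11 rose by 5.97 ± 0.31 (adjusted p = 1.32e-09 by limma), S100a10, the partner of annexin A2, by 1.71 ± 0.19 (4.54e-06), and S100a4 by 0.89 ± 0.17 (0.000912). Of these, S100a10 had a mean log2 value of 5.19, below the negative controls' median. S100a5, the gene of the reporter, was among those that fell, by 1.26 ± 0.15 (adjusted p = 1.07e-05).

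**Figure D2:**
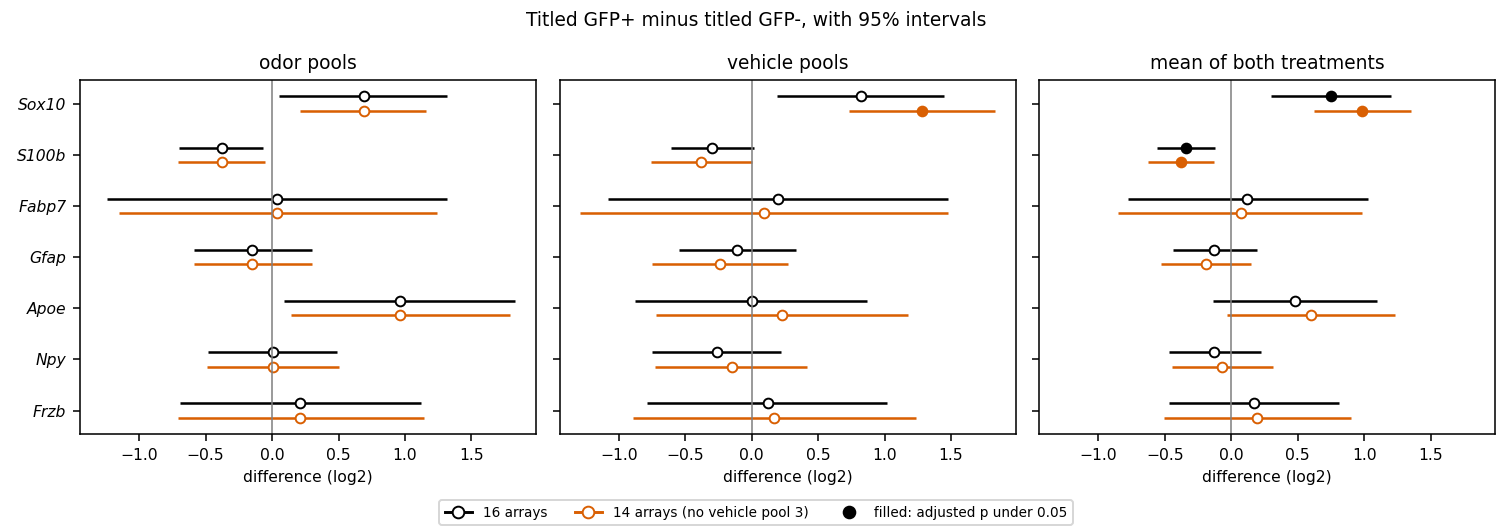
Difference in log2 value between the titled GFP+ and titled GFP- libraries (horizontal axis) for each of the 7 genes in the odor pools, the vehicle pools and averaged over both, as points with 95% intervals from limma, on 16 arrays (black) and on the 14 arrays without vehicle pool 3 (orange). Filled points passed an adjusted p of 0.05: Sox10 in the averaged comparison and, on 14 arrays, in the vehicle pools, and S100b in the averaged comparison.

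Apoe, the lipid carrier of glia and macrophages, was at a high level in every library and lowest in the odor titled GFP- group. In the odor pools 1 to 4 its log2 values were 15.20, 14.99, 14.28 and 14.06 in the titled GFP+ libraries and 12.99, 14.97, 12.89 and 13.83 in the titled GFP- libraries. In the vehicle pools they were 15.12, 15.05, 13.96 and 14.69, against 14.63, 15.16, 14.67 and 14.38. The odor titled GFP- libraries of pools 1, 3 and 4 lay below all other libraries, while that of pool 2 lay near the top of the range. In the odor pools Apoe was higher in the titled GFP+ library of 4 of 4 pools, by 0.96 ± 0.41 (SE, 95% interval 0.09 to 1.83), but this did not pass over all genes (adjusted p = 0.182 by limma on 16 arrays, 0.134 on 14). Without the titled GFP- library of odor pool 2 it was 1.40, which did not pass on the other 15 arrays (0.0580 by limma) and passed when vehicle pool 3 was left out too (adjusted p = 0.00642 by limma), as did the averaged difference (0.81, 0.0186). In the vehicle pools the difference was 0.00 ± 0.41 (adjusted p = 0.998 by limma), and 0.23 ± 0.45 (adjusted p = 0.816) without pool 3. Averaged over treatments, with all libraries, it was 0.48 ± 0.29 (adjusted p = 0.319 by limma).

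Of the 3 genes whose pattern over the 16 libraries was most like that of Apoe, C1qb, a complement subunit made by macrophages, had a Pearson r of 0.92. Decorin (Dcn), a proteoglycan of connective tissue, had an r of 0.91, and so had the ribosomal protein gene Rpl7. These were the highest among 8685 genes with a mean above the median gene. The libraries share mice in pairs, so the r is a description without a p. Within the 8 titled GFP- libraries r was 0.98 for C1qb and 0.96 for Dcn, and within the 8 titled GFP+ libraries 0.69 and 0.92. C1qb was at 5.59, 7.82, 5.60 and 6.33 in the odor titled GFP- pools 1 to 4, so that pool 2 again stood above the others. Dcn was at 6.25, 7.58, 5.50 and 6.69 in the same libraries.

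The whole myeloid marker list, 7 of 8 measured, had mean log2 values of 6.67 to 7.48 in the odor titled GFP+ libraries and 5.43 to 6.54 in the odor titled GFP- libraries, with Aif1 alone below the negative controls, and 4 of the 7 rose in the averaged comparison on 14 arrays, where 11.5% of all genes rose. They were Tyrobp, Csf1r, Cx3cr1 and Adgre1. C1qb (0.49 ± 0.31, adjusted p = 0.297 by limma) and C1qa (0.08 ± 0.19, 0.799) did not pass there. On 16 arrays, where 6.91% of all genes rose, Tyrobp alone of the list passed (0.0133). In vehicle pools 1, 2 and 4 the list ran from 6.85 to 7.26 against 5.87 to 6.61. The fibroblast list, 4 of 5 measured with Col1a1, Col1a2 and Lum below the negative controls, ran from 5.47 to 5.81 against 4.95 to 5.45 with odor, and from 5.37 to 6.00 against 5.53 to 5.83 in those vehicle pools, and 0 of its 4 genes passed in the averaged comparison on 14 arrays by limma, 1 with an unadjusted p under 0.05. Within the odor pools Dcn of that list was higher in the titled GFP+ library of 4 of 4 pools, by 1.31 ± 0.41. It passed on 14 arrays (adjusted p = 0.0472 by limma), as did 13.2% of all genes, but not on 16 (0.126). Dcn was picked for its likeness to Apoe in these libraries, so that its sharing of the Apoe pattern is only a description. The other 3 genes of the list did not pass there (Col1a1 -0.09, Col1a2 -0.06 and Lum 0.12 on 14 arrays). The part of the cells of either list in the Apoe values was not tested.

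**Figure D3:**
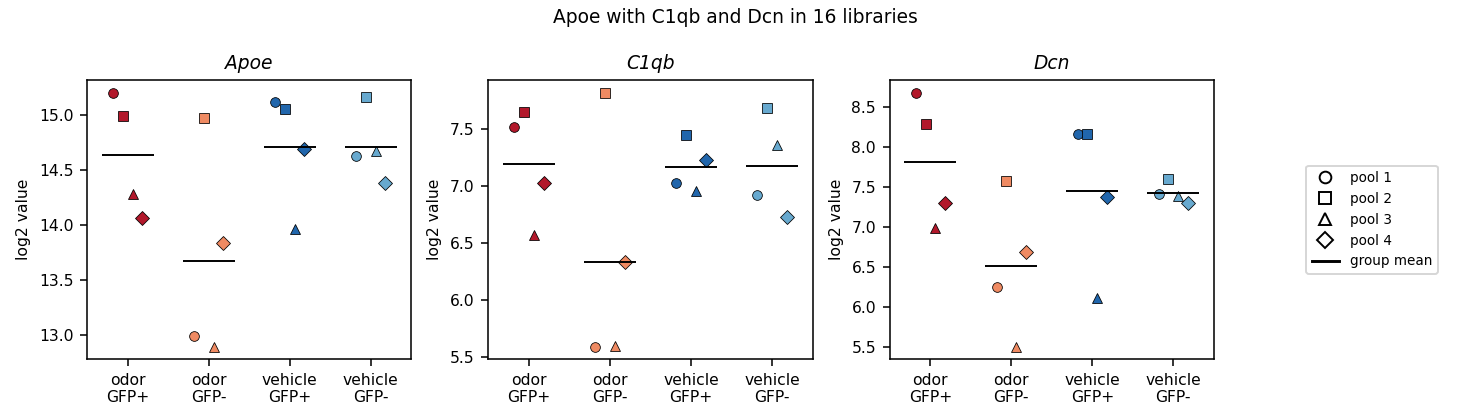
Log2 values (vertical axis, a separate scale for each gene) of Apoe, C1qb and Dcn in the 16 libraries, grouped on the horizontal axis by treatment and titled fraction, with a symbol for each pool and a bar at the group mean. All 3 genes were low in the odor titled GFP- libraries of pools 1, 3 and 4 and higher in that of pool 2.

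Receptors, transporters and other partners of Apoe were measured for 8 of 9 listed genes. In the averaged comparison on 14 arrays 3 rose and 1 fell, beside 20% of all genes called. Clusterin (Clu), another secreted apolipoprotein, rose by 3.20 ± 0.26 (adjusted p = 1.68e-07 by limma), the cholesterol transporter Abca1 by 1.01 ± 0.27 (0.0146) and the receptor Lrp1 by 0.55 ± 0.18 (0.0468). The transporter Abcg1 fell by 0.58 ± 0.11 (0.00101). On 16 arrays, with 10.8% of all genes called, Clu (2.32 ± 0.60, adjusted p = 0.0232 by limma) and Abcg1 (-0.49 ± 0.11, 0.0152) passed, and Abca1 and Lrp1 did not.

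Fabp7, a fatty acid binding protein of radial and ensheathing glia, had group means of 6.77 to 7.22 and SDs within groups of 0.59 to 1.21. In the odor pools 1 to 4 its log2 values were 6.82, 7.05, 6.08 and 8.92 in the titled GFP+ libraries and 6.86, 7.89, 6.54 and 7.40 in the titled GFP- libraries. With vehicle the values were 6.49, 8.24, 6.35 and 6.79, against 7.38, 7.86, 5.84 and 6.00. All groups overlapped. The range of 3.08 over the 16 arrays was wider than that of 94.1% of all genes, yet the averaged difference was 0.12 on 16 arrays (adjusted p = 0.891 by limma), higher in 4 of 8 pools. Of 8 other fatty acid binding protein genes, 1 passed: Fabp5, the epidermal form, rose by 1.13 ± 0.14 (adjusted p = 1.16e-05 by limma) on 14 arrays and by 0.88 ± 0.20 (0.0150) on 16, where 20% and 10.8% of all genes were called. The mean log2 value of Fabp5, 3.97, lay below the negative controls' median.

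Frzb, the Wnt inhibitor of the secreted Frizzled-related protein family, was near the bottom of the scale apart from the same 2 libraries in which Fabp7 was highest. Its log2 values in the odor pools 1 to 4 were 3.33, 2.93, 3.59 and 5.29 in the titled GFP+ libraries and 3.57, 3.53, 3.36 and 3.83 in the titled GFP- libraries. With vehicle they were 3.56, 5.16, 3.93 and 3.52, against 4.17, 3.79, 3.98 and 3.75. The titled GFP+ libraries of odor pool 4 and vehicle pool 2 thus stood above all the others. The averaged difference between fractions was 0.17 (adjusted p = 0.772 by limma), higher in 3 of 8 pools. Fabp7 and Frzb had an r of 0.60 over the 16 libraries, 0.81 within the titled GFP+ and -0.02 within the titled GFP- libraries. Theirs was the only one of the 21 pairs among the 7 genes with an r above 0.5 over all 16.

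Apod, an apolipoprotein of glia and fibroblasts, had the pattern most like that of Frzb, with an r of 0.78 over 16 libraries, 0.84 within the titled GFP+ and 0.34 within the titled GFP- libraries. It was at 10.63 in the odor titled GFP+ library of pool 4 and at 10.96 in the vehicle titled GFP+ library of pool 2, against 8.17 to 9.45 in the other 14. Apod, like the other neighbours, was picked for its likeness, and the value in these libraries is a description.

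**Figure D4:**
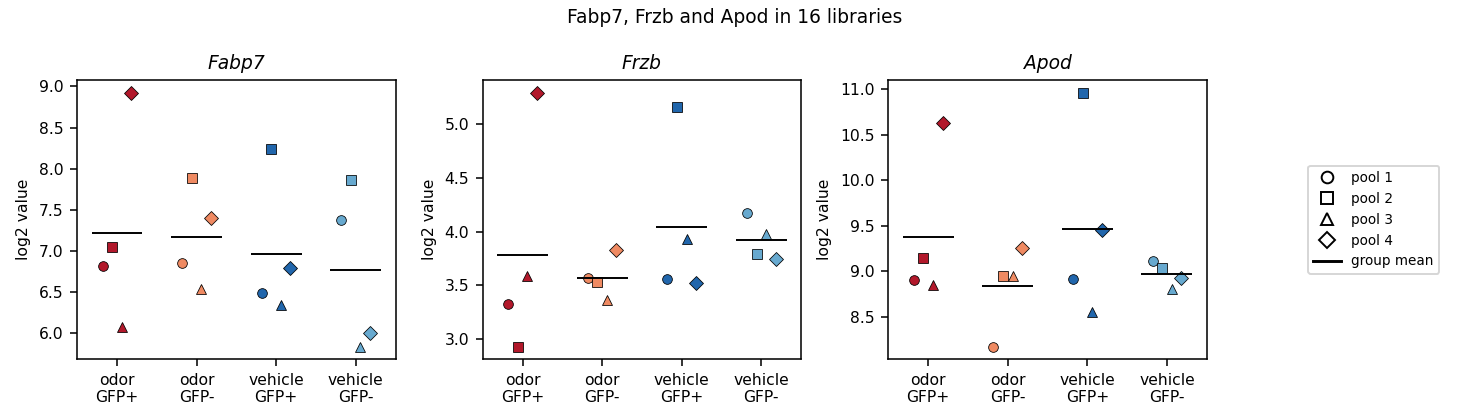
Log2 values (vertical axis, a separate scale for each gene) of Fabp7, Frzb and Apod in the 16 libraries, grouped on the horizontal axis by treatment and titled fraction, with a symbol for each pool and a bar at the group mean. The titled GFP+ libraries of odor pool 4 (diamond) and vehicle pool 2 (square) were the highest for all 3 genes.

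Of the other secreted Frizzled-related proteins, 0 of 4 passed in the averaged comparison by limma on either set, and 1 of 4 had an unadjusted p under 0.05 on each set. The gene with the smallest p over the comparisons was Sfrp4. It had that p for the fraction difference with odor minus the fraction difference with vehicle, on 16 arrays (-0.60 ± 0.21, adjusted p = 0.999 by limma). It differed between fractions by -0.41 ± 0.15 in the odor pools (0.113) and by -0.11 ± 0.11 averaged over treatments (0.535). Of the 10 Frizzled receptors, which bind Wnt ligands, 2 passed on 14 arrays, Fzd8 with 0.55 ± 0.16 (adjusted p = 0.0214 by limma) and Fzd4 with 0.53 ± 0.16 (0.0251), the same share as the 20% of all genes. The mean log2 values of Fzd8 (4.59) and Fzd4 (4.82) lay below the negative controls' median. On 16 arrays 0 of 10 passed by limma, and 3 had an unadjusted p under 0.05.

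Gfap, the filament of astrocytes and some ensheathing glia, stayed between 3.57 and 4.87 over all 16 libraries. The group means were 4.41 ± 0.16 (odor titled GFP+), 4.55 ± 0.28 (odor titled GFP-), 4.16 ± 0.48 (vehicle titled GFP+) and 4.27 ± 0.16 (vehicle titled GFP-), each an SD over 4 libraries, and the groups overlapped. The averaged difference was -0.13 (adjusted p = 0.630 by limma). With each array centred on its median it was -0.54 ± 0.16 on 14 arrays and passed (0.00822), as did 75.9% of all genes. Vimentin (Vim), a type III filament like Gfap found in glia and in many other non-neuronal cells, rose by 5.63 ± 0.23 (adjusted p = 1.38e-10) on 14 arrays and by 4.28 ± 0.88 (0.0132) on 16. Peripherin (Prph), a filament of peripheral neurons, rose by 0.86 ± 0.21 (0.00663) on 14 arrays, and on 16 its difference of 0.62 ± 0.24 did not pass (0.117). The mean log2 value of Prph, 5.17, lay below the negative controls' median.

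Npy, the neuropeptide, had log2 values of 4.79, 4.02, 3.86 and 5.14 in the odor titled GFP+ libraries of pools 1 to 4 and 4.61, 4.35, 4.46 and 4.36 in the odor titled GFP- libraries. The vehicle libraries had 4.28, 4.12, 3.91 and 3.98, against 4.15, 4.21, 4.49 and 4.48. The odor titled GFP+ group was the most spread (SD 0.61, against 0.12 to 0.18 in the other groups), with its highest value in pool 4, where Fabp7 and Frzb were also highest. The averaged difference was -0.13 (adjusted p = 0.662 by limma). With each array centred on its median it was -0.43 ± 0.19 on 14 arrays and passed (0.0488), as did 75.9% of all genes. Of 5 neuropeptide Y receptors 0 passed by limma on 16 arrays, and 0 had an unadjusted p under 0.05. The receptor gene with the smallest p over the comparisons, Npy6r, had it for odor against vehicle in the titled GFP+ libraries on 14 arrays (-0.60 ± 0.25, adjusted p = 0.579 by limma), and its averaged difference between fractions was -0.02 ± 0.18.

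Among 23 other genes of ensheathing glia and the Schwann cell lineage, 19 were measured and 4 rose and 0 fell in the averaged comparison on 14 arrays, a share near the 20% of all genes called there. They were Vim, the stem and supporting cell factor Sox2 (1.82 ± 0.35, adjusted p = 0.00125 by limma), the neuregulin receptor Erbb3 (0.71 ± 0.17, 0.00583) and the membrane protein Gpm6b (0.36 ± 0.11, 0.0247). On 16 arrays Vim and Sox2 passed, while Erbb3 (0.42 ± 0.24, adjusted p = 0.288) and Gpm6b (0.31 ± 0.10, 0.0636) did not. The median difference of the 19 genes was -0.04 on 14 arrays, against -0.10 for all genes, and -0.01 against -0.08 on 16. The median of the 7 genes themselves was 0.12 on 16 arrays and 0.07 on 14.

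Odor exposure was compared with vehicle in each titled fraction to ask whether the smell mixture moved these genes. In the titled GFP+ libraries none of the 7 passed by limma on 16 arrays (each with an adjusted p of 1 and 0 with an unadjusted p under 0.05), where 0% of all genes passed and 908 of 19505 had an unadjusted p under 0.05. Nor did any pass on 14 arrays (adjusted p from 0.788 to 0.995, 0 with an unadjusted p under 0.05), where 0.0359% of all genes passed. The intervals still allow sizeable differences: Sox10 differed by 0.29 (-0.34 to 0.93), Fabp7 by 0.25 (-1.03 to 1.53) and Apoe by -0.07 (-0.95 to 0.80).

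In the titled GFP- libraries Apoe was lower with odor, at 13.67 ± 0.96 against 14.71 ± 0.33 (SD, n = 4 each). The difference of -1.04 ± 0.41 (SE, 95% interval -1.91 to -0.17) did not pass over all genes (adjusted p = 0.737 by limma, unadjusted p = 0.0227), and the groups overlapped through odor pool 2. Without vehicle pool 3 it was -1.05 ± 0.42 (adjusted p = 0.564 by limma). C1qb and Dcn were lower in the same comparison, by -0.84 ± 0.40 (adjusted p = 0.792) and -0.92 ± 0.49 (adjusted p = 0.807), and did not pass either. Sox10 differed by 0.43 ± 0.30 on 16 arrays (adjusted p = 0.834 by limma) and by 0.63 ± 0.24 on 14 (adjusted p = 0.543). None of the 7 genes passed by limma on either set, against 0.0103% of all genes called on 16 arrays and 0.0256% on 14. Without adjustment, 1 (Apoe) had a limma p under 0.05 on 16 arrays and 2 (Apoe and Sox10) on 14. Those counts are not comparable with the adjusted shares and are not read as a result.

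**Figure D5:**
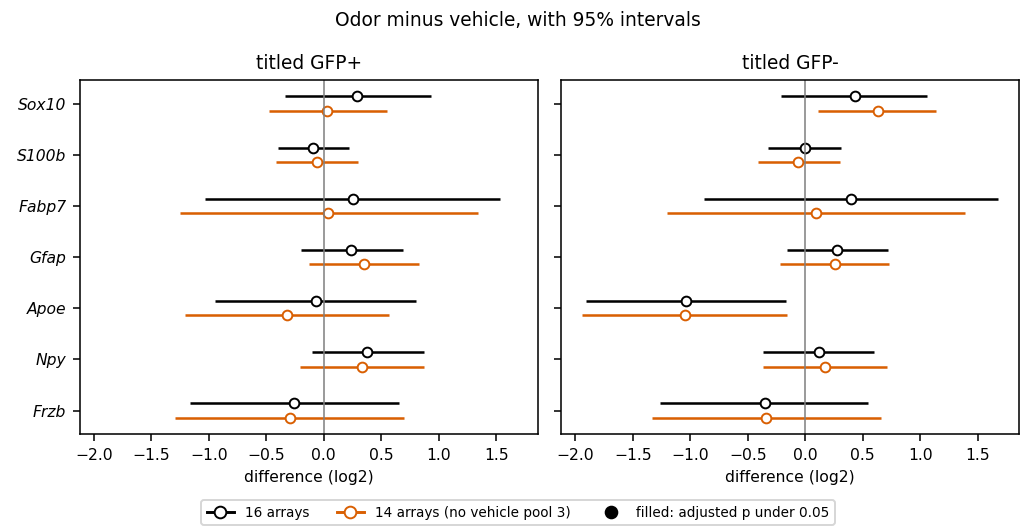
Difference in log2 value between odor and vehicle libraries (horizontal axis) for each of the 7 genes in the titled GFP+ and titled GFP- libraries, as points with 95% intervals from limma, on 16 arrays (black) and on the 14 arrays without vehicle pool 3 (orange). No point is filled, since none passed an adjusted p of 0.05, and the intervals of Apoe (16 and 14 arrays) and Sox10 (14 arrays) in the titled GFP- libraries lie to 1 side of 0.

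Whether the difference between fractions depended on odor was tested directly, as that difference in the odor pools minus that in the vehicle pools. It is called the difference between treatments below. None of the 7 genes passed by limma, with each adjusted p at 0.999 on 16 arrays and at 1 on 14 and 0 with an unadjusted p under 0.05 on either set, and 0.00513% and 0.0103% of all genes passed. Apoe had the largest estimate of the 7 on 16 arrays, 0.97 ± 0.58 (SE, 95% interval -0.27 to 2.20), and Sox10 differed by -0.13 ± 0.42 on 16 arrays and -0.59 ± 0.34 (-1.32 to 0.13) on 14. The Sox10 call in the vehicle pools and its absence in the odor pools on 14 arrays were therefore not shown to differ.

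For the remaining genes the likeness rule gave neighbours as follows, each with its r over the 16 libraries. Sox10 was most like Gabpa, an ETS family transcription factor (0.91, and 0.94 and 0.85 within the titled GFP+ and titled GFP- libraries), then Il7r (0.90) and Ranbp9 (0.89). S100b was most like Cdhr1, a cadherin-related gene (0.80, but 0.90 and 0.19 within the fractions), Abi2 and Rnf152 (both 0.78). Fabp7 was most like Pin4 (0.81), Mrpl20 and Cd59a (both 0.80), Gfap like Gatd1 (0.82), Oma1 (0.79) and Wdr11 (0.77), and Npy like Noc4l (0.72), Ptcd2 (0.63) and Hs1bp3 (0.61). After Apod, Frzb was most like Rbm6 (0.75) and Ap4m1 (0.74). No member of the ensheathing glia lists other than Apod, which is on the list of the lineage, was among these neighbours. The rule admitted only genes with a mean above the median gene (6.895). Sox10, S100b, Npy, Frzb, Gfap and other dim members of the lists thus could not appear, and their absence is not a result. Of the 21 pairs among the 7 genes 10 had an r above 0.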

How the data were processed

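Gene expression in 16 libraries of sorted mouse olfactory mucosa cells was measured on Affymetrix arrays, 1 array a library. The authors deposited 1 table of log2 values, for which the submitters' processing notes name Affymetrix Expression Console. The sources used here do not give the software version, how probes were summarized, or the build. Values ran from 1.69 to 19.4, array medians from 6.13 to 6.45. Arrays have no read depth, and their number limits the precision. Of 28846 probe sets, 6640 had control identifiers, 19572 had 1 symbol, 0 several and 2634 none. Where a gene had several (55 genes, 0 of the 7), the probe set with the highest mean over 16 arrays was used, which left 19505 genes. Symbols are those of the platform annotation.

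Groups followed the titles. Differences were fitted with limma 3.58.1 in R 4.3.3 (lmFit, eBayes, two-sided; 1 model with a mean for each of 4 groups, no block), checked on simulated data. Adjusted p-values are Benjamini-Hochberg values over 19505 genes, with a threshold of 0.05. Counts at an unadjusted p under 0.05 are not comparable with shares of all genes called after adjustment, and are not read as results. The 7 genes, the companion and marker lists and the tests were chosen with earlier results of these data known. Named were the 7 genes, up to 4 called genes of each companion list by smallest p (otherwise the gene with the smallest p), and for each of the 7 the 3 genes with the highest Pearson r among genes above the median mean, without chemosensory receptors and unnamed loci. Values by library were added for C1qb and Dcn, among the genes most like Apoe, and for Apod, the gene most like Frzb. The genes most like the other members were not followed by library.

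Per the labels, each number within a treatment is 1 pool of mice, so that the numbers pair the fractions. The deviations of paired libraries from their group means correlated at 0.13 to 0.25 in the odor pools and at -0.75 to -0.06 in the vehicle pools. Odor and vehicle pools of the same number share no mice. Alternatives were a block for the pool (random; fixed, added after the data were seen) or for the number, centring, quantile normalization, a filter on dim probe sets, the mean of a gene's probe sets, and leaving out vehicle pool 3 or each library.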

Additional observations from a re-analysis of the deposited data

Results flagged for a closer look

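S100b in the vehicle titled GFP+ library of pool 2 was low, at a log2 value of 4.42, against 4.94 to 5.05 in the other 3 libraries of that group. Its gap to the nearest of them was 0.831 of the group's range, just above Dixon's 95% critical value for 4 samples. It was the only such library among 28 groups tested (7 genes in 4 groups), and chance alone flags about 1 group in 20. The same library held the highest Apod value and the second highest Frzb and Fabp7 values of the 16.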

How the results depend on the processing

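Sox10 stayed higher and S100b lower in the titled GFP+ libraries in all 3 fraction comparisons under every setting run, for Sox10 in the averaged comparison by 0.48 to 0.88 with both or either library of vehicle pool 3 and by 0.63 to 1.07 on the 14 arrays, while their calls depended on it as given beside them. With the pool of mice as a fixed block, 0 of the 7 genes were called in the averaged comparison on 16 arrays. With the replicate number block, with quantile normalization and with the filter on dim probe sets, which leaves out S100b, Npy, Frzb and Gfap, 1 was called, and on 14 arrays the filter also left 1. In the vehicle comparison 1 was called without vehicle pool 3, alone or with either pool block. In the odor comparison 1 was called with a random pool block without vehicle pool 3 (Sox10). S100b was the 1 called there with centring on both sets and with quantile normalization on 14 arrays. Centring called 51.7% of all genes in that comparison on 14 arrays, so its 1 call is not read as particular to S100b. Centring each array called 4 of the 7 on 14 arrays in the averaged comparison, where 75.9% of all genes were called: Sox10, S100b, Gfap (-0.54, adjusted p = 0.00822 by limma) and Npy (-0.43, 0.0488). In the vehicle comparison it called 2, Sox10 and S100b, with 43.1% of all genes. Leaving out 1 library gave 0 to 2 calls in the averaged comparison, 1 to 3 on 14 arrays, and 0 to 1 in the vehicle comparison and in the odor comparison on 14 arrays. Odor against vehicle and the difference between treatments gave no call of the 7 under any setting run.

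Counts over all genes moved more. In the averaged comparison 2107 genes became 9143 with centring, 1 with the fixed pool block, and without vehicle pool 3 became 3903, 4588 (random block) and 4106 (fixed block), with 14808 on centring the 14 arrays. In the odor comparison 1359 became 5741 with centring, 2 with the number block, 2 with the fixed block, and 2570, 2922 and 2645 without vehicle pool 3, with 10078 on centring. In the vehicle comparison 0 became 2180, 2508 and 2314, with 8397 on centring. For odor in titled GFP-, 2 became 4 with the number block and 5 without vehicle pool 3, also with the random block. For odor in titled GFP+, 0 became 7 and 6, and on 14 arrays 13 with the dim filter and 11 with quantile normalization. The test of the difference between treatments gave 1 and then 0 with the number or fixed block, 2 without vehicle pool 3, 3 with the random block, and on 14 arrays 1 with the fixed block. Leaving out 1 library gave 1302 to 3453 (averaged), 2 to 2184 (odor), 0 to 1163 (vehicle), 1 to 5 and on 14 arrays 1 to 6 (odor in titled GFP-), 0 to 3 and on 14 arrays 0 to 10 (odor in titled GFP+), and 0 to 2 and on 14 arrays 1 to 3 (difference between treatments).

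Centring moved the median difference of all genes from -0.08 to -0.35 in the averaged comparison, where Sox10 was then at 0.48 and S100b at -0.61. The share of calls that were higher fell from 63.9% to 14% with centring and 49.4% with quantile normalization, in the odor comparison from 65.6% to 17.7% and 53.2%, and on 14 arrays from 57.5% to 11.2% and 39.4% (averaged), from 65.2% to 13.3% and 49.3% (odor) and from 70.3% to 15.8% and 52.8% (vehicle).

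Signs turned only for differences that were not called. With centring these were Fabp7 (averaged -0.15, odor -0.31), Frzb (averaged -0.10, odor -0.14, vehicle -0.07, difference between treatments -0.06), Npy (odor -0.34), S100b (odor in titled GFP- 0.09) and Apoe (vehicle on 14 arrays -0.12). With quantile normalization they were Fabp7 (-0.10 and -0.26), Npy (-0.02), S100b (0.07) and Apoe (vehicle 0.04). Without vehicle pool 3, alone or with a pool block, Apoe was at 0.23 (vehicle) and Gfap at 0.09 (difference between treatments). Leaving out 1 library gave for Apoe -0.14 to 0.25 (vehicle) and -0.32 to 0.12 (odor in titled GFP+). For Fabp7 it gave -0.16 to 0.31 (averaged), -0.52 to 0.42 (odor), -0.23 to 0.56 (vehicle), -0.32 to 0.67 (odor in titled GFP+) and -0.72 to 0.27 (difference between treatments), and for Frzb -0.08 to 0.31, -0.29 to 0.50, -0.26 to 0.29, -0.76 to 0.12 and -0.41 to 0.47 in the same order. The ranges were -0.26 to 0.09 (vehicle) and -0.24 to 0.11 (difference between treatments) for Gfap, -0.22 to 0.20 for Npy (odor), -0.06 to 0.05 for S100b (odor in titled GFP-) and -0.39 to 0.14 for Sox10 (difference between treatments). The cause of these changes was not tested. With the replicate number block Sox10 kept its averaged call (adjusted p = 0.0492 by limma).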
